A study of Mus musculus with 8 samples.

Results

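The genes described here are 9 chemokines, small secreted proteins that guide monocytes and lymphocytes into tissue: Ccl2, Ccl5, Ccl7, Ccl28, Cxcl9, Cxcl10, Cxcl12, Cxcl16 and Cx3cl1. They were taken by symbol from a table of 25239 genes measured by RNA-seq in mouse kidney after ischemia-reperfusion (I/R), where blood flow to a kidney is stopped and then restored, and all 9 were present in it. The knockout I/R group holds 4 libraries labelled myeloid-specific FoxO1-knockout, called knockout 1 to 4, from Lyz2-CreERT2 FoxO1flox/flox mice, in which a Cre driven by Lyz2, a gene of macrophages, monocytes and neutrophils, is switched on by tamoxifen. The control I/R group holds 4 libraries with the genotype label WT, called control 1 to 4. One protocol text stands for all 8 samples: mice aged 8 to 10 weeks, tamoxifen at 75 mg/kg for 5 days, removal of the right kidney, and 35 min of clamping of the left renal vessels. The sources used here do not state whether WT mice had the Cre or received tamoxifen, how long after reperfusion the kidney was taken, or whether each library is 1 animal, so the p-values reflect library-to-library spread, which may be partly technical. RNA came from whole collagenase-digested kidney, in which fewer cells of a type and less RNA per cell cannot be told apart. The study asked what FoxO1 in macrophages does in this kidney injury.

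Chemokines bind receptors on white blood cells and set up gradients along which the cells migrate. Ccl2 and Ccl7 act through Ccr2, which inflammatory monocytes use to leave bone marrow and enter injured kidney, and Ccl5 acts on monocytes and T cells through receptors that include Ccr1 and Ccr3. Cxcl9 and Cxcl10 are induced by interferons and attract T and NK cells through Cxcr3. Cxcl16 and Cx3cl1 are made as membrane-bound proteins that are shed by proteases, and they bind Cxcr6 and Cx3cr1. Cxcl12, which holds lymphocytes and progenitor cells in tissue, acts through Cxcr4 and the scavenging receptor Ackr3, and Ccl28 is an epithelial chemokine of mucosal surfaces that acts through Ccr10 and Ccr3.

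The promoters of the genes that moved most and of an interferon-induced gene give the sequence context of these measurements. RefSeq promoter windows of 300 bases (250 before and 50 after the annotated start, assembly GRCm38.p6) were matched for 5 of the 9 genes: Ccl28, Cxcl12, Cxcl10, Cxcl9 and Cx3cl1. Ccl28 lies on the plus strand at chr13:119623569-119623868, Cxcl12 on the plus strand at chr6:117168285-117168584, and Cxcl10 on the minus strand at chr5:92348840-92349139. They are printed 5′ to 3′ along the gene, with letters that match a searched motif in capitals.
Ccl28 promoter: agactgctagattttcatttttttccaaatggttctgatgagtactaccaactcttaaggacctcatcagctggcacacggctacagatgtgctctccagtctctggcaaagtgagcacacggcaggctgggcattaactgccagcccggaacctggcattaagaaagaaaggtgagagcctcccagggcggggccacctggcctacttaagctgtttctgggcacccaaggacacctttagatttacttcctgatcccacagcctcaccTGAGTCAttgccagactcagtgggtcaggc
Cxcl12 promoter: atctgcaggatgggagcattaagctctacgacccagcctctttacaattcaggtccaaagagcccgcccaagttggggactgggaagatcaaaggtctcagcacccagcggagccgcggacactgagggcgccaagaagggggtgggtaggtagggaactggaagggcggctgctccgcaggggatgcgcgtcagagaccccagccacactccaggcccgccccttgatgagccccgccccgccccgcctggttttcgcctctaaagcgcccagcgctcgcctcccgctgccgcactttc
Cxcl10 promoter: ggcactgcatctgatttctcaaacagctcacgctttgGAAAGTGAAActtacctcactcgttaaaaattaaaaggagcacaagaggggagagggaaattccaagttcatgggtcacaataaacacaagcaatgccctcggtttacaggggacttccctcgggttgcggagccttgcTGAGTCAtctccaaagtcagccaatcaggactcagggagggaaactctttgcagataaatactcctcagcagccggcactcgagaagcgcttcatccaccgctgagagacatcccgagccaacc
Each window was searched on both strands for 5 motifs: GTAAACA of FoxO factors, GGGA, any base and TTTCC of NF-kB, GAAA, any 2 bases and GAAA of interferon regulatory factors, TTCNNNGAA of STAT factors and TGANTCA of AP-1. The capitals in Ccl28 mark an AP-1 match at bases 271 to 277, and those in Cxcl10 mark an interferon regulatory factor match at bases 38 to 47 and an AP-1 match at bases 177 to 183, with no overlap between them. The Cxcl12 window held no match to any of the 5 motifs, and neither did that of Cx3cl1. Over the 5 windows, AP-1 letters were found in 3 (Ccl28, Cxcl9 and Cxcl10), against 7.81% of all 32851 RefSeq promoter windows. Relative to the start, these matches began at base 21 in Ccl28, 32 in Cxcl9 and -74 in Cxcl10. Interferon regulatory factor letters were found in 1 window, against 3.44%. Whether so few windows differ from all windows was not tested. FoxO letters were found in 0 of the 5 windows and in 3.65% of all windows. NF-kB letters were found in 0 and 0.411%, and STAT letters in 0 and 8.30%. Only these exact letters were searched, so a window without a match can still hold other forms of a site.

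The libraries held between 29044405 and 35530421 counts, and levels are given as CPM, counts scaled to a common library size after edgeR's TMM factors. Kidney cell markers were abundant in every library, with a summed level of 8 proximal tubule genes of 5620 to 7590 CPM in knockout kidneys and 1990 to 5930 CPM in control kidneys. Foxo1 itself averaged 41.1 ± 1.49 CPM in knockout kidneys and 33.7 ± 0.626 CPM in control kidneys (SD, n = 4 each). Its log2 fold change was 0.29 (SE 0.09, adjusted p = 0.0647 in edgeR, DESeq2 adjusted p = 0.00611), so whole kidney RNA showed no loss of the targeted gene, and the files give no measure of its deletion within myeloid cells. Lyz2, whose promoter drives the Cre, had 1302, 909, 13 and 858 counts in knockout 1 to 4 and 81, 1610, 1144 and 844 counts in control 1 to 4. Knockout 3 and control 1 stood far below the rest, and results were therefore also computed without both. Summed neutrophil genes were at 178 CPM in control 1, the highest library, and at 5.92 CPM in knockout 3, the lowest. Low Lyz2 counts thus did not go with low neutrophil genes in control 1, and the cause was not tested.

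Ccl28 and Cxcl12 were the 2 chemokines of the 9 that edgeR called, and both were higher in knockout kidneys. edgeR's quasi-likelihood test called 2 of 9 genes at an adjusted p under 0.05 over all 15000 genes tested, against a background of 12.7% of all genes tested (1909 genes). Both calls were higher, against 6.45% of all genes, and 0 were lower, against 6.28%, although 2 lower genes (Ccl2 and Ccl7) had an unadjusted p under 0.05 in edgeR and DESeq2 called 1 (Ccl2). All 9 passed the filter on low counts. The median log2 fold change of the 9 was -0.15 and that of all genes tested was -0.01. The groups did not overlap for 2 of the 9 genes, again Ccl28 and Cxcl12, against 21.7% of all genes.

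**Figure D1:**
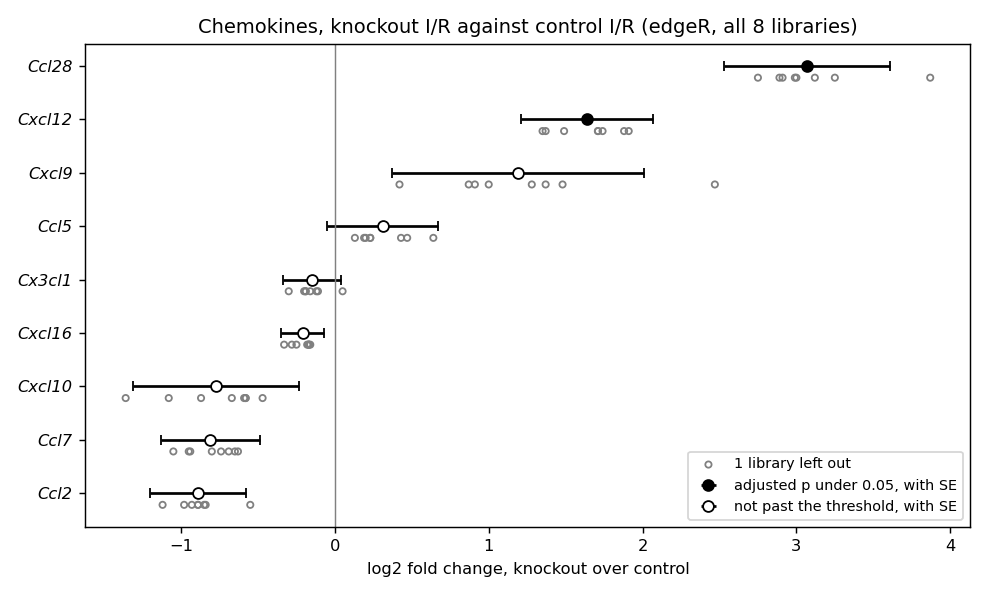
Log2 fold change of knockout over control (x axis) of each chemokine from the edgeR fit over all 8 libraries, with its SE as a bar; filled points passed an adjusted p of 0.05, and small open points show the value with 1 library left out. Ccl28 (3.07) and Cxcl12 (1.64) lie to the right of 0 with every library left out in turn, while Ccl2 (-0.89) and Ccl7 (-0.81) lie to the left and did not pass.

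Ccl28 had the largest fold change of the 9. Its level was 35.7, 19.4, 27.8 and 42.6 CPM in knockout 1 to 4, against 1.01, 8.51, 2.41 and 3.04 CPM in control 1 to 4. Every knockout library was above every control library, and control 2 was the highest of the controls. The means were 31.4 ± 9.99 CPM in knockout and 3.75 ± 3.29 CPM in control kidneys (SD, n = 4 each), from 671 to 1437 counts per knockout library and 36 to 272 counts per control library. The difference was 8.40-fold, a log2 fold change of 3.07 (SE 0.54, adjusted p = 0.00712 in edgeR), and a two-sided exact permutation test gave p = 0.0286, the smallest that 4 against 4 allows. The call held under all 18 alternatives, with the log2 fold change between 2.75 and 3.87, the upper end being the value without control 2.

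Cxcl12 rose 3.11-fold. Its level was 184, 105, 94.4 and 104 CPM in knockout 1 to 4, against 13.2, 59.4, 26.8 and 57.3 CPM in control 1 to 4. All 4 knockout libraries were above all 4 controls, knockout 1 stood well above the other knockouts, and the controls split into 2 lower libraries (1 and 3) and 2 higher ones (2 and 4). The means were 122 ± 41.9 CPM in knockout kidneys and 39.2 ± 22.8 CPM in control kidneys (SD, n = 4 each). This gave a log2 fold change of 1.64 (SE 0.43, adjusted p = 0.0332 in edgeR), with an exact permutation p of 0.0286. It stayed positive without each library in turn (1.35 to 1.91), but the call was lost without knockout 1 (1.37, adjusted p = 0.0741 in edgeR), knockout 2 (1.71, 0.0643), knockout 3 (1.74, 0.0542), knockout 4 (1.71, 0.0683) or control 3 (1.49, 0.0905). Without control 1 and knockout 3 together, Ccl28 and Cxcl12 both kept their calls (adjusted p = 0.0105 and 0.0311 in edgeR). Of other genes named below, Ccr2, Ackr3 and Dpp4 lost theirs in that fit (adjusted p = 0.0882, 0.136 and 0.0665 in edgeR). So did the chemokines Ccl6, Ccl9, Pf4 and Cxcl3 (0.0518 to 0.0795), while Ccl20 and Cxcl1 kept theirs.

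Markers of several kidney structures and of cell stress moved in the same comparison as Ccl28 and Cxcl12. The counts below stand beside 12.7% of all genes tested that were called. Of 9 genes of the loop of Henle, distal tubule and collecting duct, 8 rose and 0 fell, with summed levels of 8590 to 9090 CPM in knockout and 2630 to 4660 CPM in control kidneys. All 8 genes of injured tubule (among them Havcr1, the kidney injury molecule, and the keratins Krt8 and Krt20) fell, with summed levels of 5850 to 6800 CPM in knockout and 15000 to 29600 CPM in control kidneys. Of 9 immediate early genes, which cells switch on quickly under stress and handling, 7 fell and 0 rose, with sums of 232 to 256 CPM in knockout and 423 to 658 CPM in control kidneys, and 7 were called in every alternative. Of 8 proximal tubule genes 3 rose (Slc7a13, Aqp1 and Lrp2) and 0 fell. Of 5 podocyte genes 4 rose and 0 fell, with sums of 511 to 560 CPM in knockout and 336 to 431 CPM in control kidneys, and the count was 1 without knockout 2, knockout 4, control 3 or control 4 and 2 without knockout 3. Of 8 endothelial genes, Tek, Kdr and Ptprb rose and 0 fell (summed levels of 607 to 721 CPM in knockout and 226 to 589 CPM in control kidneys), and the count was 0 when knockout 3 or knockout 4 was left out and 1 when control 3 was. Of 7 tested fibroblast and mural genes 0 were called (Pdgfra, Col1a2 and Dcn at an unadjusted p under 0.05 in edgeR, and 1 called by DESeq2). The sums were 543 to 881 CPM in knockout and 240 to 671 CPM in control kidneys. Ren1 was at 0 in all 8 libraries, and whether this reflects the counting or the tissue was not tested. The part of these markers in the chemokine differences was not tested.

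**Figure D2:**
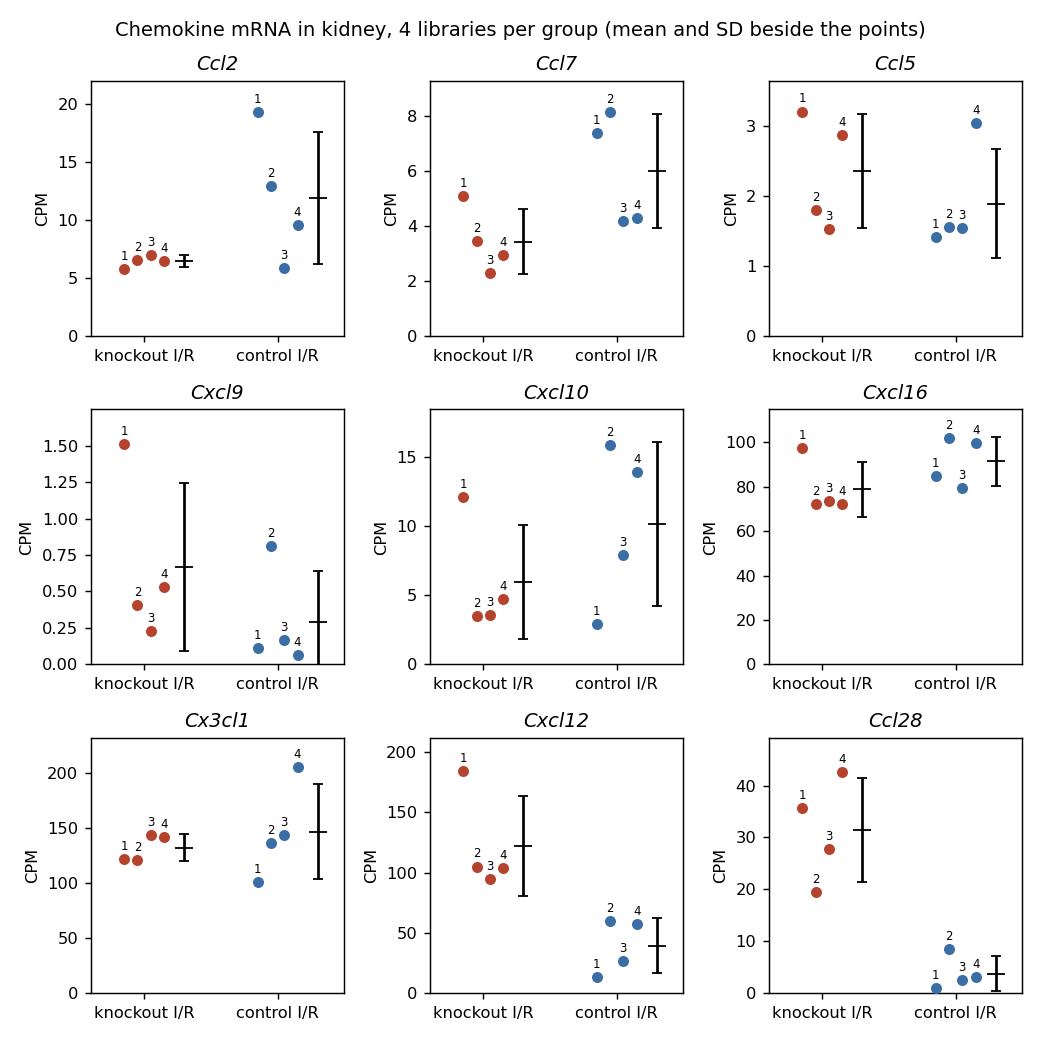
Level of each chemokine in CPM (y axis, from 0) in the 4 knockout I/R libraries and the 4 control I/R libraries, numbered by library, with the mean and SD beside the points; the lower bar of Cxcl9 in controls is drawn only to 0. The groups separate for Ccl28 (19.4 to 42.6 CPM in knockout, 1.01 to 8.51 CPM in control) and Cxcl12 (94.4 to 184 CPM in knockout, 13.2 to 59.4 CPM in control) and overlap for the other 7 genes.

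The monocyte attractants Ccl2 and Ccl7 were lower on average in knockout kidneys without passing the test. Ccl2 had 5.76, 6.51, 7.00 and 6.46 CPM in knockout 1 to 4, against 19.3, 12.9, 5.84 and 9.59 CPM in control 1 to 4. The knockout libraries lay close together and the controls were spread widely, with control 3 inside the knockout range. The coefficient of variation was 7.93% in knockout and 48.0% in control kidneys. The log2 fold change was -0.89 (SE 0.31, adjusted p = 0.0887 in edgeR, exact permutation p = 0.114), DESeq2 called it (adjusted p = 0.0348), and so did edgeR without control 3 (-1.12, adjusted p = 0.0280). Without control 1 the log2 fold change was -0.55.

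Ccl7 had 5.07, 3.45, 2.28 and 2.93 CPM in knockout 1 to 4, against 7.39, 8.13, 4.18 and 4.28 CPM in control 1 to 4. Knockout 1 overlapped with controls 3 and 4, and the other 3 knockouts lay below all controls. Ccl7 had a log2 fold change of -0.81 (SE 0.32, adjusted p = 0.125 in edgeR, exact permutation p = 0.0857). Ccl2 and Ccl7 are neighbours in a cluster of CC chemokine genes on chromosome 11, followed by Ccl11, Ccl12 and Ccl8 in the annotation. Those 3 had log2 fold changes of -0.35, 0.44 and -1.16, and none was called (adjusted p in edgeR of 0.850, 0.639 and 0.438, all over 0.05 unadjusted, and the sign of Ccl11 and of Ccl12 turned in some alternatives). The log2 excess of Ccl2 over Ccl7 per kilobase averaged 0.95 in knockout and 0.91 in control kidneys, with library values of 0.17 to 1.60 in knockouts and 0.47 to 1.37 in controls.

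Ccl5, made by T cells, NK cells and stimulated tubule, had 3.20, 1.80, 1.52 and 2.87 CPM in knockout 1 to 4, against 1.41, 1.56, 1.54 and 3.04 CPM in control 1 to 4. Knockouts 1 and 4 and control 4 were high and the other 5 libraries were low, so the groups overlapped. For Ccl5 the log2 fold change was 0.31 (SE 0.36, adjusted p = 0.614 in edgeR, exact permutation p = 0.314). Its nearest chemokine neighbours on chromosome 11 are Ccl9 and Ccl6, macrophage chemokines of rodents, and both fell in knockout kidneys. Ccl6 had 6.99 to 9.86 CPM in knockout and 12.2 to 74.0 CPM in control kidneys, a log2 fold change of -2.03 (SE 0.50, adjusted p = 0.0265 in edgeR), and -1.28 without control 1. Ccl9 had 5.75 to 8.29 CPM in knockout and 10.9 to 59.3 CPM in control kidneys, a log2 fold change of -1.92 (SE 0.49, adjusted p = 0.0320 in edgeR), and -1.15 without control 1. The call of Ccl6 was lost without knockout 2, 3 or 4 (adjusted p of 0.0686 to 0.0818 in edgeR), and that of Ccl9 without knockout 1, 2, 3 or 4 (0.0643 to 0.0951).

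The interferon-induced pair Cxcl9 and Cxcl10 overlapped between groups. Cxcl10 had 12.1, 3.50, 3.61 and 4.71 CPM in knockout 1 to 4, against 2.92, 15.9, 7.89 and 13.9 CPM in control 1 to 4. Knockout 1 was high among low knockouts, and control 1 was low among higher controls. The log2 fold change was -0.77 (SE 0.54, adjusted p = 0.378 in edgeR, exact permutation p = 0.371), and -1.36 without knockout 1. limma voom with quality weights per library, in which libraries that scatter more count less, gave -1.30 with an adjusted p of 0.0497. Cxcl9 was the least abundant of the 9, with 42, 14, 8 and 18 counts in knockout 1 to 4 and 4, 26, 6 and 2 counts in control 1 to 4.

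The Cxcl9 level was 1.51, 0.405, 0.226 and 0.533 CPM in knockout 1 to 4, against 0.112, 0.813, 0.168 and 0.0648 CPM in control 1 to 4. Knockout 1 and control 2 were the 2 highest libraries, and the log2 fold change of 1.19 (SE 0.82, adjusted p = 0.376 in edgeR, exact permutation p = 0.200) ran from 0.42 without knockout 1 to 2.47 without control 2. Cxcl11, the third ligand of Cxcr3, had a log2 fold change of 0.74 (SE 0.55, adjusted p = 0.412 in edgeR). Cxcl9 and Cxcl10 lie close together on chromosome 5 with Art3 between them.

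The transmembrane chemokines Cxcl16 and Cx3cl1 differed little between groups. Cxcl16 had 97.4, 72.0, 73.4 and 72.2 CPM in knockout 1 to 4, against 84.9, 102, 79.2 and 99.4 CPM in control 1 to 4. Knockouts 2 to 4 lay close together below every control and knockout 1 lay among the controls. Its log2 fold change was -0.21 (SE 0.14, adjusted p = 0.336 in edgeR, exact permutation p = 0.171). Zmynd15 on the opposite strand shares 552 of the 2699 exon bases of Cxcl16 in the annotation at hand. Reads in those shared bases could not be told apart by strand, since the library kit does not mark strand. The deposited length of Cxcl16 is 1813 bases, so the overlap in the authors' annotation is not known. Zmynd15 reached at most 504 counts and had a log2 fold change of 0.27.

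Cx3cl1, or fractalkine, had 122, 121, 144 and 142 CPM in knockout 1 to 4, against 101, 137, 144 and 206 CPM in control 1 to 4. The knockouts lay inside the range of the controls, and the coefficient of variation was 9.51% in knockouts and 29.7% in controls. The log2 fold change was -0.15 (SE 0.19, adjusted p = 0.645 in edgeR, exact permutation p = 0.686), and 0.05 without control 4. On chromosome 8 it lies between the chemokine genes Ccl22 (log2 fold change -0.91, adjusted p = 0.460 in edgeR) and Ccl17, which was not tested.

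Per gene length the 2 transmembrane chemokines were the most abundant of the 9 in both groups. In CPM per kilobase, Cxcl16 averaged 43.4 ± 6.87 in knockout and 50.4 ± 6.07 in control kidneys, and Cx3cl1 averaged 42.0 ± 3.99 in knockout and 46.7 ± 13.9 in control kidneys (SD, n = 4 each). In knockout kidneys they were followed by Cxcl12 (17.0 ± 5.85), Ccl28 (8.40 ± 2.67), Ccl2 (7.98 ± 0.633), Cxcl10 (5.43 ± 3.72), Ccl5 (4.42 ± 1.54), Ccl7 (4.30 ± 1.49) and Cxcl9 (0.230 ± 0.198). Among neighbours in that order, the library ranges were separate between Cx3cl1 and Cxcl12, Cxcl12 and Ccl28, and Ccl7 and Cxcl9, and overlapped for the other 5 pairs.

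In control kidneys the order after Cxcl16 and Cx3cl1 was Ccl2 (14.8 ± 7.09 CPM per kilobase), Cxcl10 (9.24 ± 5.37), Ccl7 (7.50 ± 2.58), Cxcl12 (5.47 ± 3.19), Ccl5 (3.56 ± 1.46), Ccl28 (1.00 ± 0.879) and Cxcl9 (0.0998 ± 0.121). Only Cx3cl1 against Ccl2 and Ccl5 against Ccl28 had separate ranges among neighbours. Ccl28 thus held rank 4 in knockout and rank 8 in control kidneys, and Cxcl12 held rank 3 in knockout and rank 6 in control kidneys. The summed level of the 9 genes was 117 to 159 CPM per kilobase in knockout and 117 to 165 in control kidneys. Of that sum, Cxcl12 took 10.6% to 16.2% in knockout and 1.55% to 5.38% in control libraries, and Ccl28 took 4.44% to 8.61% in knockout and 0.226% to 1.48% in control libraries.

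**Figure D3:**
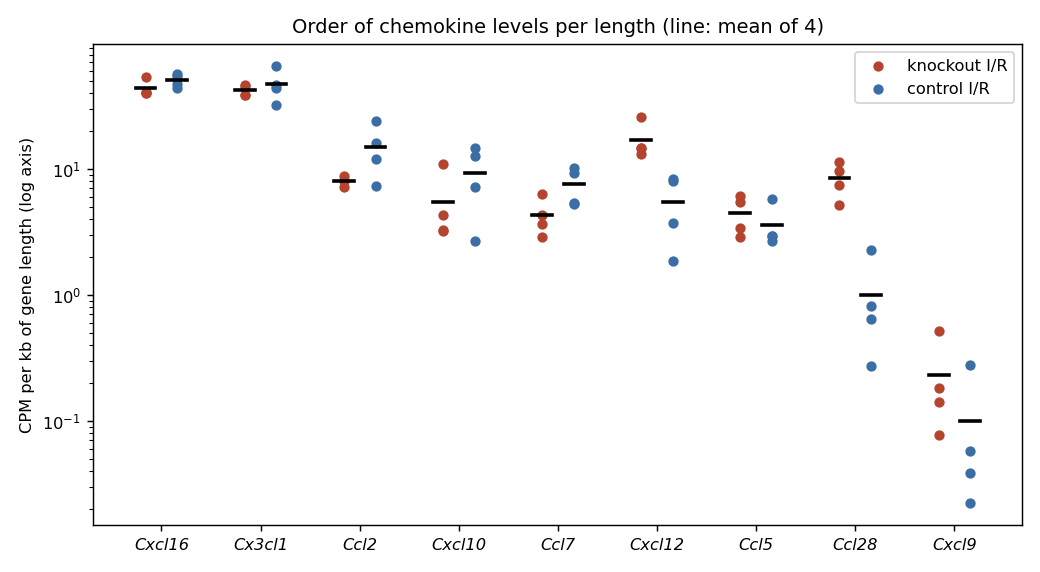
Level per gene length (CPM per kilobase, log axis) of each chemokine in each library, knockout I/R left of control I/R, ordered by the control mean; lines are means of 4 libraries. Cxcl16 and Cx3cl1 lead in both groups, and Cxcl12 (mean 17.0 in knockout, 5.47 in control) and Ccl28 (8.40 in knockout, 1.00 in control) stand higher in knockout kidneys.

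The spread within groups was not shared by all 9 genes. Knockout 1 had the highest level of its group for Ccl5, Ccl7, Cxcl9, Cxcl10, Cxcl12 and Cxcl16, and the lowest for Ccl2. Control 1 had the lowest level of its group for Ccl5, Ccl28, Cxcl10, Cxcl12 and Cx3cl1, and the highest for Ccl2. The coefficient of variation was larger in control than in knockout kidneys for Ccl2, Ccl5, Ccl28, Cxcl9, Cxcl12 and Cx3cl1. It was 31.8% in knockout and 87.8% in control kidneys for Ccl28, and 86.0% in knockout and 121% in control kidneys for Cxcl9.

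**Figure D4:**
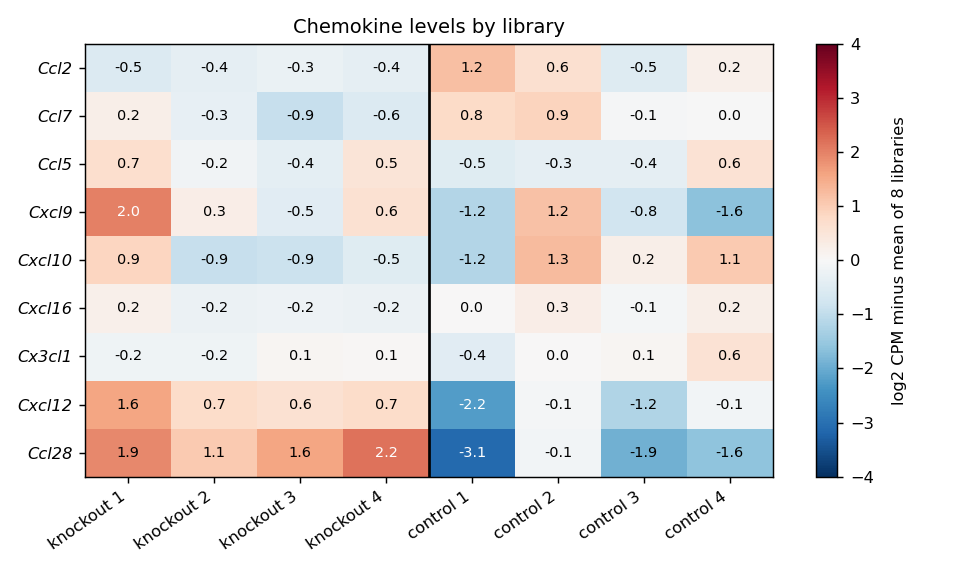
Log2 CPM of each chemokine in each library minus its mean over the 8 libraries (colour and printed value), with knockout libraries left of the black line and control libraries right of it. Ccl28 and Cxcl12 are above their mean in 4 of 4 knockout libraries, and control 1 is low for Ccl28 (1.01 CPM) and Cxcl12 (13.2 CPM) but high for Ccl2 (19.3 CPM).

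Of 12 receptors listed for these chemokines, 9 could be tested, and 1 rose (Ackr3) and 1 fell (Ccr2). That is 22.2% called, against 12.7% of all genes tested. Ccr2, the receptor of Ccl2 and Ccl7 on inflammatory monocytes, had 1.08, 2.35, 2.20 and 2.52 CPM in knockout 1 to 4, against 28.9, 3.54, 6.01 and 4.47 CPM in control 1 to 4. The groups did not overlap, and control 1 stood far above every other library. The log2 fold change was -2.39 (SE 0.66, adjusted p = 0.0404 in edgeR), and -1.19 without control 1 (adjusted p = 0.0471). The call was lost without knockout 1, 2, 3 or 4 or control 3 (edgeR adjusted p of 0.0559 to 0.0928), and with voom weights (log2 fold change -1.29, limma adjusted p = 0.0651).

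Ackr3, which takes up and degrades Cxcl12, had 90.5, 131, 119 and 93.7 CPM in knockout 1 to 4, against 52.9, 80.7, 75.3 and 75.7 CPM in control 1 to 4. All knockouts lay above all controls, and the log2 fold change was 0.61 (SE 0.17, adjusted p = 0.0403 in edgeR). The call was lost without knockout 2, 3 or 4 or control 1, 3 or 4 (edgeR adjusted p of 0.0601 to 0.109). Cxcr4, the signalling receptor of Cxcl12, averaged 4.35 ± 0.864 CPM in knockout and 5.60 ± 1.68 CPM in control kidneys (log2 fold change -0.36, SE 0.25, adjusted p = 0.382 in edgeR). Ccr10, the Ccl28 receptor of plasma cells and T cells, averaged 0.499 ± 0.341 CPM in knockout and 0.268 ± 0.153 CPM in control kidneys (log2 fold change 0.87, SE 0.63, adjusted p = 0.397).

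Ccr1, a receptor of Ccl5 and Ccl7 on monocytes and T cells, had 4.53, 5.33, 4.71 and 3.65 CPM in knockout 1 to 4, against 19.5, 5.82, 5.48 and 5.44 CPM in control 1 to 4. The groups did not overlap, and control 1 was again far above the rest. Its log2 fold change was -0.99 (SE 0.42, adjusted p = 0.147 in edgeR), and -0.29 without control 1. Ccr1 and Ccr2 have close paralogs, so how the authors' counting divided shared reads is uncertain. Cxcr3, the T and NK cell receptor of Cxcl9 and Cxcl10, had 0.347 to 0.972 CPM in knockout and 0.0562 to 0.389 CPM in control kidneys (log2 fold change 1.84, SE 0.66, adjusted p = 0.0929 in edgeR). These levels rest on few counts: 27, 12, 18 and 29 in knockout 1 to 4 and 2, 8, 2 and 12 in control 1 to 4.

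Cx3cr1, the fractalkine receptor of monocytes and resident macrophages, averaged 10.3 ± 0.977 CPM in knockout and 9.17 ± 3.27 CPM in control kidneys, a log2 fold change of 0.17 (SE 0.23, adjusted p = 0.678 in edgeR). The scavenger Ackr2, which degrades inflammatory CC chemokines, averaged 0.280 ± 0.151 CPM in knockout and 0.388 ± 0.00844 CPM in control kidneys (log2 fold change -0.46, SE 0.46, adjusted p = 0.547). Cxcr6, the Cxcl16 receptor, was too low to be tested, with 12, 10, 6 and 9 counts in knockout 1 to 4 and 0, 7, 2 and 0 counts in control 1 to 4. Ccr3 and Ackr1 had at most 2 and 4 counts in any library.

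Of 3 enzymes that cut these chemokines, Dpp4 rose (33.3% called, against 12.7% of all genes tested). Dpp4, a protease of the proximal tubule brush border and of T cells that inactivates Cxcl12 and Cxcl10, had 55.9, 49.8, 62.7 and 51.1 CPM in knockout 1 to 4, against 27.5, 42.0, 35.7 and 36.9 CPM in control 1 to 4. The groups were separate, and the log2 fold change was 0.63 (SE 0.14, adjusted p = 0.0200 in edgeR). The call was lost without knockout 3 (adjusted p = 0.0583) or control 3 (0.0544). The sheddases of Cx3cl1 and Cxcl16 did not pass: Adam10 had a log2 fold change of -0.46 (SE 0.22, adjusted p = 0.204 in edgeR) and Adam17 of -0.11 (SE 0.15, adjusted p = 0.683, with a sign that turned in 2 alternatives).

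**Figure D5:**
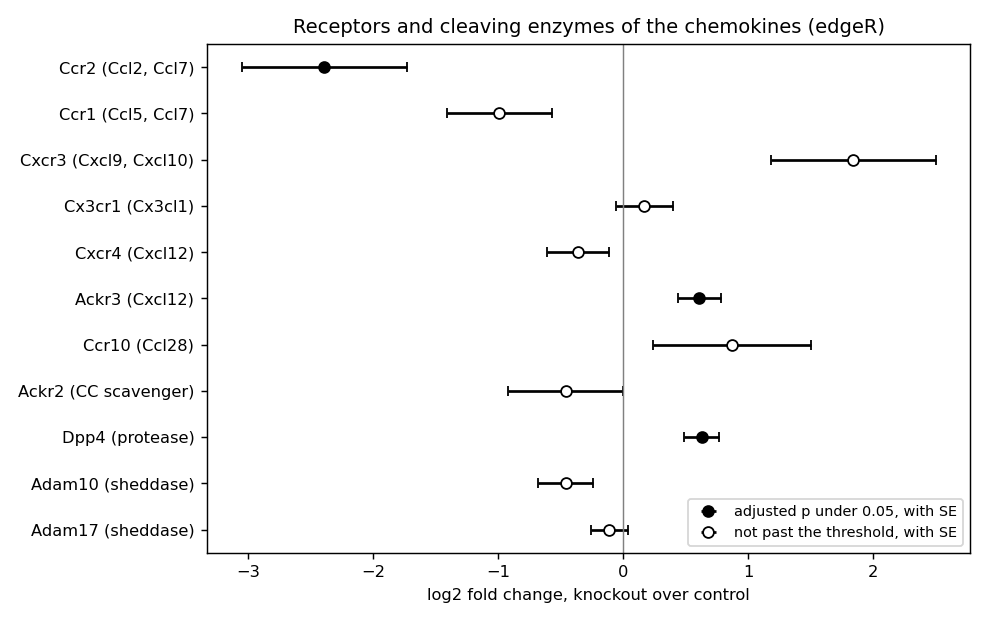
Log2 fold change of knockout over control (x axis) with SE from the edgeR fit for receptors and cleaving enzymes of the chemokines, each with its ligand or role in brackets; filled points passed an adjusted p of 0.05. Ccr2 (-2.39) lies left of 0, and Ackr3 (0.61) and Dpp4 (0.63) lie right of it.

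Among other chemokine ligands, 7 fell and 0 rose. Of 32 listed, 20 could be tested, of which 35.0% were called, against 12.7% of all genes tested. The median log2 fold change of the 20 was -1.11. Ccl20, the ligand of Ccr6, averaged 0.744 ± 0.286 CPM in knockout and 3.13 ± 0.344 CPM in control kidneys, a log2 fold change of -2.08 (SE 0.32, adjusted p = 0.00387 in edgeR). The neutrophil attractant Cxcl1 had 1.81 to 4.26 CPM in knockout and 6.94 to 25.8 CPM in control kidneys (log2 fold change -2.26, SE 0.43, adjusted p = 0.00966). Both held their call without each library in turn. The count of 7 went to 4 without knockout 1, to 2 without knockout 2 and to 3 without knockout 3 or knockout 4. Pf4, a platelet and macrophage chemokine, had a log2 fold change of -1.94 (adjusted p = 0.0200 in edgeR) and -1.33 without control 1, and the neutrophil attractant Cxcl3 had -4.06 (adjusted p = 0.0250 in edgeR) and -2.47 without control 1. Cxcl3 had 4, 6, 2 and 4 counts in knockout 1 to 4 and 224, 18, 42 and 10 counts in control 1 to 4. It therefore passed the filter on low counts through the controls alone. Cxcl5, also among the 7 and named after its values were seen, had 0 to 16 counts in knockouts and 33 to 55 in controls. The call of Pf4 was lost without knockout 2, 3 or 4 and that of Cxcl3 without knockout 1, 2, 3 or 4. Whether these genes differ from the 9 was not tested.

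NF-kB, TNF and IL-1 signalling is known to induce Ccl2, Ccl5, Ccl7, Cxcl10 and Cx3cl1. Among 18 tested genes of this signalling, 9 fell and 0 rose, beside 12.7% of all genes tested called in either direction. The median log2 fold change of the 18 was -0.61. Whether these genes had a part in the chemokine levels was not tested. Nfkb2, an NF-kB subunit, averaged 34.4 ± 4.24 CPM in knockout and 69.2 ± 6.45 CPM in control kidneys, a log2 fold change of -1.01 (SE 0.12, adjusted p = 0.00156 in edgeR). The TNF receptor gene Tnfrsf1a (-0.72, adjusted p = 0.00292 in edgeR), the NF-kB cofactor Nfkbiz (-1.18, 0.00303) and the adaptor Myd88 (-0.87, 0.00400) fell as well. The cytokine genes themselves did not pass in edgeR: Tnf had a log2 fold change of -0.15 (SE 0.43, adjusted p = 0.853 in edgeR), and Il1b of -1.33 (SE 0.47, adjusted p = 0.0873) with -0.70 without control 1, and DESeq2 called Il1b (-1.32, adjusted p = 0.0271). Il6 was too low to be tested, with 0, 4, 0 and 0 counts in knockout 1 to 4 and 125, 12, 22 and 9 counts in control 1 to 4, which do not overlap.

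The interferon pathway induces Cxcl9 and Cxcl10. Of 21 tested genes of this pathway, 1 rose and 2 fell (14.3% called, against 12.7% of all genes tested). The median log2 fold change of the 21 was 0.05. The part of these genes in the chemokine levels was not tested. Ifngr2, a chain of the interferon gamma receptor, averaged 38.5 ± 4.34 CPM in knockout and 76.9 ± 14.3 CPM in control kidneys (SD, n = 4 each; adjusted p = 0.00320 in edgeR). Ifngr1, the other chain, had a log2 fold change of -0.55 (SE 0.15, adjusted p = 0.0342 in edgeR), and the antiviral gene Rsad2 of 0.88 (SE 0.23, adjusted p = 0.0353). The calls of Ifngr1 and Rsad2 were each lost in 6 of 8 fits that left out a library. Ifngr2 was called in all 18 alternatives. The list's count of calls was 1 without knockout 3, knockout 4 or control 3, 2 without knockout 1, knockout 2, control 1 or control 4, and 5 without control 2, and it was 7 under DESeq2 and 6 with voom weights. Ifng itself had 0 counts in all 8 libraries.

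Markers of the cells that follow these chemokines moved unevenly. Of 14 monocyte and macrophage genes, 2 fell (Cd14 and Itgam) and 0 rose (14.3% called, against 12.7% of all genes tested). The sum of the 14 was 295 to 477 CPM in knockout and 383 to 504 CPM in control kidneys, with none at 0. Cd14 averaged 30.0 ± 6.80 CPM in knockout and 106 ± 26.8 CPM in control kidneys (log2 fold change -1.82, SE 0.21, adjusted p = 0.00120 in edgeR). Without control 1 its log2 fold change was -1.91, and which kidney cells held the Cd14 RNA was not tested. Itgam had -1.58 (adjusted p = 0.0384 in edgeR) and -0.86 without control 1. Its call was lost without knockout 1, 2, 3 or 4 (0.0759 to 0.109). Csf1r, the growth factor receptor of macrophages, was higher in every knockout library (46.3 to 65.2 CPM) than in any control library (25.2 to 43.4 CPM) without passing the test (log2 fold change 0.60, SE 0.18, adjusted p = 0.0546 in edgeR), and is named after its values were seen. In all, 5 of the 14 had an unadjusted p under 0.05 in edgeR, and DESeq2 called 5. The macrophage marker Adgre1 had a log2 fold change of 0.29 (adjusted p = 0.454 in edgeR). The list's count of calls was 1 without any 1 knockout, 4 without control 1 or control 2, and 3 without control 4.

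All 5 tested neutrophil genes fell, with sums of 5.92 to 16.9 CPM in knockout and 28.7 to 178 CPM in control kidneys, control 1 being the highest, and 2 were called when knockout 2 or knockout 4 was left out and 3 when knockout 3 was. Of 8 tested T cell genes 0 were called by edgeR (1 at an unadjusted p under 0.05, and 1 called by DESeq2), with sums of 7.02 to 14.8 CPM in knockout and 4.35 to 12.2 CPM in control kidneys. The list had 1 call in 7 of 18 alternatives. The gene in the T cell list at an unadjusted p under 0.05 was Cd8a, named after its values were seen: it had 1.99 to 4.32 CPM in knockout and 0.393 to 1.72 CPM in control kidneys (log2 fold change 1.57, SE 0.48, adjusted p = 0.0583 in edgeR, DESeq2 adjusted p = 0.0103), and edgeR called it with library size only (0.0453), with halved counts (0.0478) and without control 4 (0.0441). Of 3 tested NK cell genes 0 were called by edgeR (1, Eomes, at an unadjusted p under 0.05) and 0 by DESeq2, and the sums were 1.88 to 3.74 CPM in knockout and 1.32 to 2.79 CPM in control kidneys. The part of these cells in the chemokine and receptor levels was not tested.

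The genes whose pattern over the 8 libraries was most like each chemokine were found among 12062 genes by Pearson's r of log2 CPM. These values describe 8 libraries that share group, depth and scaling, and r of the deviations from the group means is given second. The best of 12062 genes over 8 libraries is high by selection alone, and how high was not tested. Ranked by the deviations, the nearest gene dropped out of the 3 nearest for Ccl2, Cxcl9, Cxcl10, Cxcl12, Cxcl16 and Cx3cl1. For Ccl28 they were Cables2 (0.997 and 0.985), Nucb1 (0.993 and 0.967) and Akr1c18 (0.988 and 0.936), an aldo-keto reductase with close paralogs that averaged 190 ± 108 CPM in knockout and 6.67 ± 7.02 CPM in control kidneys. For Cxcl12 they included the deubiquitinase Usp2 (0.995 and 0.987) and the retinaldehyde reductase Dhrs3 (0.992 and 0.978), and both rose, with log2 fold changes of 1.40 and 1.32 (adjusted p in edgeR of 0.0452 and 0.0337).

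For Ccl2 they were the potassium channel Kcnn4 (0.969 and 0.947), the complement receptor C5ar1 (0.960 and 0.939) and the tyrosine kinase Fes (0.957 and 0.961). C5ar1 fell, at 9.73 ± 0.625 CPM in knockout and 20.5 ± 10.7 CPM in control kidneys (log2 fold change -1.08, adjusted p = 0.0436 in edgeR). The nearest gene was Mapk11 for Ccl7 (0.993), Tctn3 for Ccl5 (0.934), Bag1 for Cxcl9 (0.961), Gnb2 for Cxcl16 (0.983) and Chrd for Cx3cl1 (0.935), and none of these 5 was called. Ifi27l2a, an interferon-induced gene (0.947), and B2m, the light chain of MHC class I (0.946), were also among the 3 nearest to Cxcl9.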

How the data were processed

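The authors deposited 1 table of whole-number counts per gene for the 8 libraries, unnormalized, with a gene length column. Per the submitters' processing notes, the tools were HISAT2 2.2.1, Salmon 1.10.2, Trim Galore 0.6.2 and FastQC, with build mm39, and which tool made the counts is not given in the sources used here. Per the labels' protocols, the kit was NEBNext Ultra RNA, which does not mark strand. The identifier column named the gene of its own line in 13 of 18423 cases, so genes were taken by symbol. Between 68.7% and 70.9% of values from 1 to 20 were even, against 49.5% to 50.4% over 100, so a low count may stand for fewer fragments. The counts carry no molecular identifiers, so duplicate reads could not be told from separate molecules.

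Genes passing filterByExpr by group (minimum count 10) were fitted with edgeR 4.0.16 in R 4.3.3 (TMM, glmQLFit, glmQLFTest, no covariates, Benjamini-Hochberg adjustment over all genes tested, called at 0.05). The code was tested on simulated data. CPM were computed here with TMM factors, log2 CPM with a prior count of 2, and CPM per kilobase with the deposited length. Exact permutation tests used 70 assignments of mean log2 CPM. DESeq2 1.42.0, limma 3.58.1 voom, other scalings, other filters, halved counts, left-out libraries and a replicate block were alternatives.

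The 9 genes and all lists were chosen with earlier results of these data known. Named genes were the 9, their tested receptors and cleaving enzymes, up to 4 called genes by smallest p from each other pathway list, up to 3 from each cell list, a few stated cytokine and marker genes, chromosomal neighbours, and the 3 genes most like each chemokine (mean log2 CPM at least 1). A few genes that this rule names are not reported here.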

Additional observations from a re-analysis of the deposited data

Results flagged for a closer look

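A gap test at its 95% level was run in 18 groups of 4 libraries (9 genes in 2 groups). In 5 of them, 1 library stood apart from the other 3. Chance passes the test in about 1 in 20 independent groups. These groups share the same 8 libraries, and Cxcl10 moved with Cxcl12 and Cxcl16 (r of the deviations 0.957 and 0.808). The count of 5 therefore cannot be set against 1 in 20. Knockout 1 was the library in 3 of the 5 groups. Its Cxcl12 level was 184 CPM, with 105 CPM the nearest knockout. Its Cxcl16 level was 97.4 CPM, with 73.4 CPM the nearest. Its Cxcl10 level was 12.1 CPM, with 4.71 CPM the nearest. Among the controls, Ccl5 in control 4 was 3.04 CPM, with 1.56 CPM the nearest, and Cxcl9 in control 2 was 0.813 CPM, with 0.168 CPM the nearest.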

How the results depend on the processing

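Under DESeq2, without control 1 and knockout 3 together, and with the replicate number as a block, 3109, 1045 and 865 of all genes tested were called, against 1909. Left-out libraries gave 907 to 1984, with 1050 without knockout 2, 1139 without knockout 3, 907 without knockout 4 and 1058 without control 3. Of the 9 chemokines, 1 or 2 were called when a library was left out and 1 (Ccl28) with the block, where Cxcl12 had a log2 fold change of 1.76 and an edgeR adjusted p of 0.0858. The higher calls were 1 or 2 and the lower calls 0 or 1 when a library was left out; DESeq2 called 1 lower (Ccl2) and voom weights 1 lower (Cxcl10). Without control 1 and knockout 3 together, 0 listed receptors, 0 endothelial genes, 2 podocyte genes and 3 other chemokine ligands were called. Ifngr1 and Rsad2 lost their calls in that fit. With the block Ccr2 had -1.75 (adjusted p = 0.174) and Dpp4 also lost its call (0.0643), and 5 in place of 9 NF-kB, TNF and IL-1 genes were called. The replicate numbers did not pair the libraries: the correlation of same-numbered deviations ran from -0.198 to 0.153, and 0 of 4 knockouts correlated best with its own number. Signs turned for Ccl11 (0.09), Ccl12 (-0.03) and Adam17 (0.00) with voom weights and for Tnf (0.33) without control 1 and knockout 3. Left-out libraries gave Cx3cl1 -0.30 to 0.05, Ccl11 -0.82 to 0.22, Ccl12 -0.02 to 0.77, Adam17 -0.18 to 0.01, Tnf -0.40 to 0.11 and Lyz2 -0.69 to 0.26. Cxcl9 could not be fitted with the filter of 50 counts in 4 libraries or with halved counts. For the other alternatives the cause of a change was not tested. The low counts of Cxcl3, Cxcl5, Cxcl9, Cxcr3, Cxcr6 and Ccr10 carry a larger relative counting error.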
